A study of Mus musculus with 2 samples.

Results

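Hepatokines are hormone-like proteins that hepatocytes release into the blood, and 9 genes for such proteins linked to fatty liver are described here in liver with and without Iah1. They are Fgf21, Gdf15, Inhbe, Inhba, Angptl4, Angptl6, Fetub, Ahsg and Enho, chosen by name. A gene was measured where the platform annotation gave a probe set exactly 1 gene symbol, and 7 of the 9 genes met this, out of 22180 genes named in the same way. Each of the 7 has 1 probe set, so its probe set value is also its gene value. Angptl6 shares its probe set with Shfl, a gene that overlaps it in the RefSeq annotation, and no value is given for it. No probe set is listed for Gdf15 in the annotation used here, and it was not analysed here.

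Each genotype was measured on 1 Affymetrix array. The first carried pooled liver RNA of 3 Iah1-WT mice and the second that of 3 Iah1-KO mice, whose Iah1 deletion is systemic and so not limited to hepatocytes. All mice were male, received CE2 chow until 6 weeks of age and then a pelleted high-fat diet for 12 weeks, were housed singly, and went without food for 4 hours before collection. No source used here gives the strain background. Pooling leaves no spread between mice, and with 1 array per genotype no test was possible and no p-value is given. The words higher and lower therefore describe 2 pools.

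The liver uses these proteins to signal its nutritional and stress state to other organs. FGF21 acts through FGF receptors together with the co-receptor beta-Klotho, and its gene is a target of the fasting-activated nuclear receptor PPAR-alpha and of ATF4, the transcription factor of the integrated stress response. Activin E, the product of Inhbe, and activin A, the product of Inhba, belong to the TGF-beta family, ANGPTL4 inhibits lipoprotein lipase, and the fetuins are cystatin-related plasma proteins that are among the abundant secretory products of hepatocytes.

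Of the 7 measured hepatokine genes, Fgf21 was higher and Inhba lower in the KO pool by more than 1.5-fold, while the other 5 differed by at most 1.05-fold. Values are RMA signals on the log2 scale, and differences are KO minus WT on that scale. All 7 genes passed an intensity filter, which asked that the higher array reach 4.68, the median over all genes, and 11090 genes passed it. Both arrays were above the filter for each of the 7. The 2 of 7 past 1.5-fold compare with 3.92% of all genes past the filter in either direction (1.47% higher and 2.45% lower in KO). The median difference of the 7 genes was -0.06, beside -0.02 for all genes past the filter, and 6 of the 7 lay below 0, as did 55.7% of all genes.

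**Figure D1:**
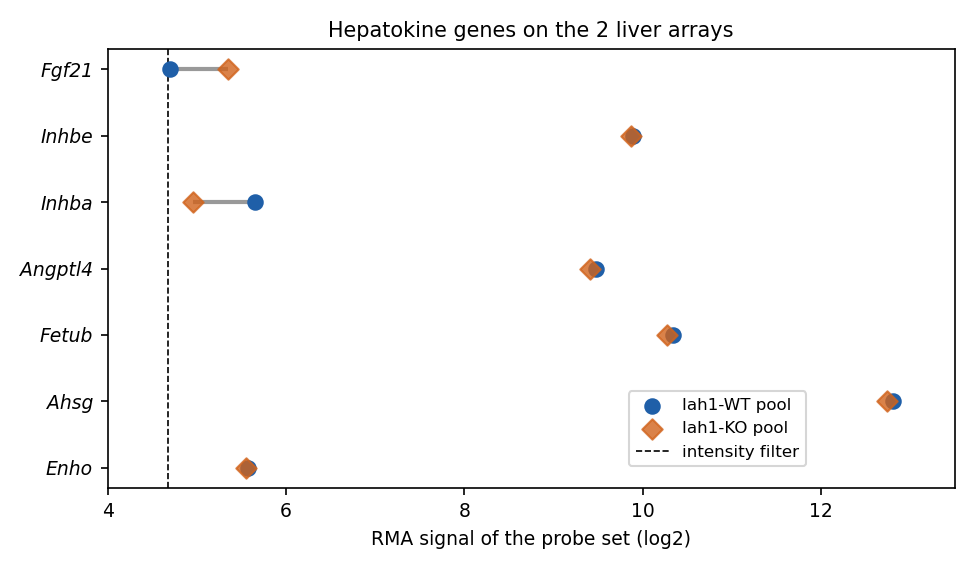
RMA signal (log2, horizontal axis) of the probe set of each measured hepatokine gene in the Iah1-WT pool (circles) and the Iah1-KO pool (diamonds), with the intensity filter of 4.68 as a dashed line; each point is 1 array and there are no error bars. The points separate for Fgf21 and Inhba, in opposite directions, and overlap for the other 5 genes.

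The precision behind a difference depends on signal. Replicates being absent, the measure of error used was how far probe sets of the same gene differ from each other, which leaves out variation among mice, labelling and hybridisation. When genes past the filter were split into 4 equal groups by mean signal, the standard deviation of a single probe set's difference around its gene was 0.31 in the dimmest group (208 genes with several probe sets) and 0.16 in the brightest (71 genes). Fgf21 and Inhba were both in the dimmest group, where 9.84% of 2773 genes passed 1.5-fold. Inhbe, Angptl4, Fetub and Ahsg were in the brightest, where 0.721% did, and Enho was in the second dimmest, where 3.68% did.

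**Figure D2:**
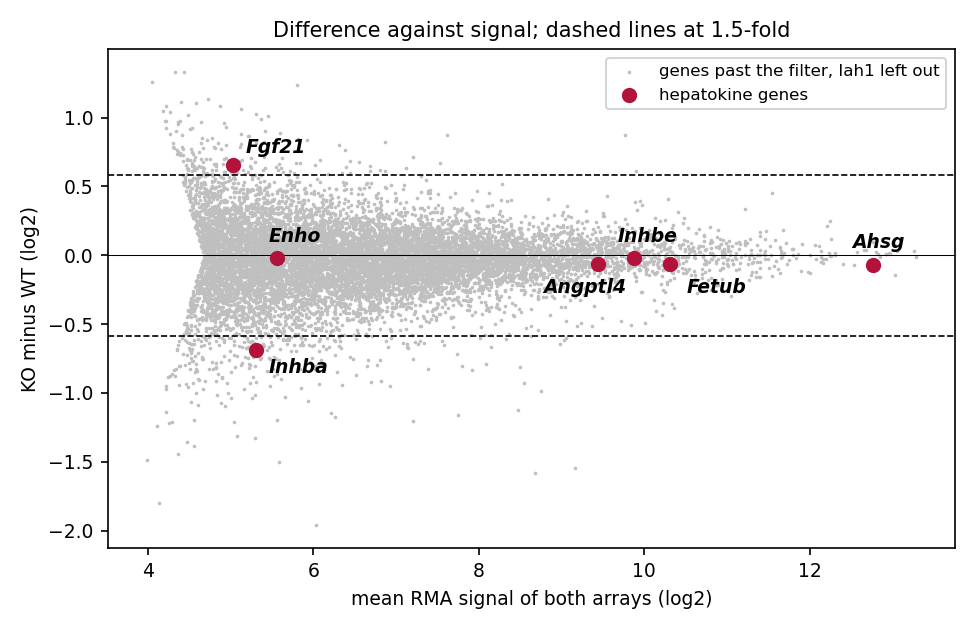
KO minus WT difference (log2, vertical axis) against the mean signal of both arrays (log2, horizontal axis) for the genes past the filter, without Iah1; red points are the 7 hepatokine genes and dashed lines mark 1.5-fold. Fgf21 (0.65) and Inhba (-0.69) lie in the wide, dim end of the cloud, and the 4 bright hepatokine genes lie within 0.07 of 0 in its narrow end.

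The Fgf21 signal was 4.70 in WT and 5.35 in KO. The WT value was only 0.02 above the filter, so Fgf21 was dim in both pools, and the filter is no detection limit. The difference of 0.65, or 1.57-fold, ranked as number 108 from the top among 11090 genes. It was 2.11 times the probe set standard deviation of its signal group, and 92.9% of the genes in that group differed by less in either direction. The group held 121 genes that were 1.5-fold higher in KO, 4.36% of it.

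Fgf21 and Inhbe are both known targets of ATF4, and their promoters are shown because they share a sequence that bears on this. The promoter windows are those of RefSeq on GRCm38.p6, from 250 bases before to 50 after the annotated transcript start, and 7 of the 9 genes have 9 such windows. They were searched on both strands for TGATGNAA (the core of the composite element of ATF4 and C/EBP), AGGTCA repeated after 1 base (a PPAR element of the DR1 type), TGACGTCA (the cAMP response element), CACGTG (an E-box) and TATAAA (the TATA box), none of which overlapped another in these windows. The ATF4 and C/EBP core was found in 2 windows, those of Fgf21 and Inhbe, and in 3.97% of all 32851 promoter windows. It reads as its reverse complement in both and lies from -139 to -132 in Fgf21 and from -181 to -174 in Inhbe. Capitals in the sequences mark this core and TATAAA, 5′ to 3′ in the direction of the gene. Inhba is shown as the other gene past 1.5-fold. Its window holds TATAAA and no match to the core. The same is true of the first window of Fetub, which differed by -0.06 between the pools. Whether the core goes with the direction of a difference was not tested. The TATAAA of Inhba lies from -91 to -86, farther from the start than that of Fgf21, from -28 to -23.
Fgf21, chr7:45615441-45615740, minus strand: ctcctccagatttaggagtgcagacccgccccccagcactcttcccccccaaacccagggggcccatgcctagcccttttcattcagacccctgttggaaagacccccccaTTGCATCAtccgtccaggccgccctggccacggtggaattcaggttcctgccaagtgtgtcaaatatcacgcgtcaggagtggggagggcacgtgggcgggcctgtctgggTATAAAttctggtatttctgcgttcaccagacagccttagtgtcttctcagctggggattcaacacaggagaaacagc
Inhbe, chr10:127351799-127352098, minus strand: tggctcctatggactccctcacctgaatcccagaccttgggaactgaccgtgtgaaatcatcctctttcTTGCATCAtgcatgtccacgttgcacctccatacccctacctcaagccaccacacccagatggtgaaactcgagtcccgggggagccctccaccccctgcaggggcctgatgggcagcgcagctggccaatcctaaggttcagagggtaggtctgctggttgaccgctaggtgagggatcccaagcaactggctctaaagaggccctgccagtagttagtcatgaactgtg
Inhba, chr13:16011601-16011900, plus strand: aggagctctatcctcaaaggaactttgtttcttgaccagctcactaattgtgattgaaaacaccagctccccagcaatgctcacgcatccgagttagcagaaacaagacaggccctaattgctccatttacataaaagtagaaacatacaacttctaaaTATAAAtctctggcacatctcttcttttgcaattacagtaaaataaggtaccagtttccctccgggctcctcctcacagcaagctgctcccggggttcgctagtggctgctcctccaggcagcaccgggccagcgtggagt

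The E-box was found in the windows of Fgf21 (from -50 to -45) and of the second Gdf15 start, and in 7.15% of all windows. TATAAA was found in those of Fgf21, Inhba and the first Fetub start, and in 13.6% of all. It lay from -28 to -23 in Fgf21, from -91 to -86 in Inhba and from -31 to -26 in Fetub. The PPAR and cAMP elements had no match in the 9 windows and were present in 0.0396% and 1.79% of all. The PPAR element was searched in 1 exact form of 13 bases. A form this rare would hardly be met in 9 windows, so its absence says nothing about PPAR sites. No window was listed for Angptl4 and Enho. A match is a description of letters and does not show that a factor binds there.

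**Figure D3:**
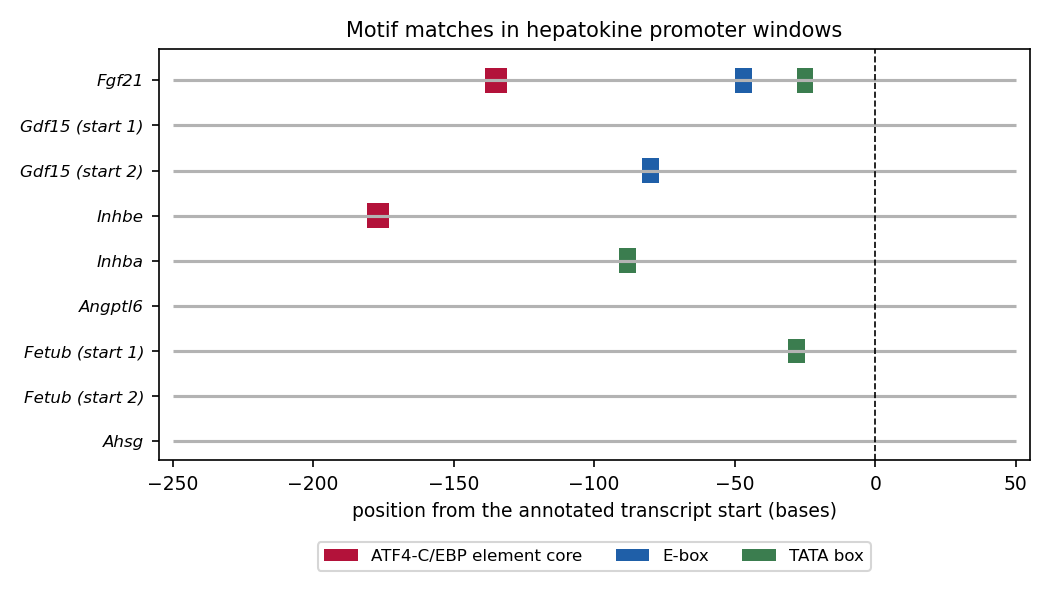
Matches to the 5 searched motifs along the promoter windows of the hepatokine genes, in bases from the annotated transcript start (dashed line); each grey line is 1 window and each block 1 match on either strand, and motifs without a match have no colour. The core of the ATF4 and C/EBP element is seen in Fgf21 and Inhbe and in no other window.

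Inhbe, whose window holds the same 8 bases as that of Fgf21, was close between the pools. Its signal was 9.89 in WT and 9.87 in KO, which differ by -0.02 or 1.02-fold, and 17.1% of the genes in its signal group differed by less. Its neighbour Inhbc, which encodes the activin C subunit, was at 8.11 in WT and 8.06 in KO (-0.05).

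Genes listed for the integrated stress response, to which ATF4 belongs, went both ways. The list also takes in general genes of endoplasmic reticulum stress (Ern1, Xbp1, Hspa5 and Herpud1), and Creb3l3, which the PPAR-alpha list holds too. Of its 26 genes 23 passed the filter, and 16 of these lay below 0, against 55.7% of all genes. None was past 1.5-fold, and the median was -0.11. Atf4 itself had signals of 6.96 in WT and 7.14 in KO (0.18). The largest differences were those of Vldlr, a lipoprotein receptor gene (-0.57), Ppp1r15a, which encodes a phosphatase subunit that reverses the response (-0.52), and Asns, the asparagine synthetase gene (0.50). Asns was below the filter in WT and was at least 1.05-fold higher in KO against it.

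Genes of the PPAR-alpha list, the other known input to Fgf21, showed mostly small differences. All 20 measured genes of 23 passed the filter, and 13 lay above 0. None was past 1.5-fold by the mean of a gene's probe sets, and the median was 0.04. Acot4 (0.52) and Acot3 (0.34), which encode acyl-CoA thioesterases, and the peroxisome gene Pex11a (0.27) differed most. For Acot4 the difference was 0.15 by its first probe set and 0.89 by its second. The second, at 5.29 in WT and 6.18 in KO, was above the filter on both arrays and past 1.5-fold. Ppara itself had signals of 9.48 in WT and 9.50 in KO.

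The listed FGF receptor genes and the co-receptor gene Klb all lay below 0, by differing amounts. Fgfr2 differed most of these, at 7.24 in WT and 6.99 in KO (-0.25), with Fgfr3 at -0.12 and Fgfr4 at -0.02. Klb, the gene of beta-Klotho, was at 8.30 in WT and 8.21 in KO (-0.09), and Fgfr1 was at 5.29 in WT and 5.26 in KO (-0.03). Of 13 genes in the list of FGF receptors, co-receptors and feedback genes, 11 passed the filter, 3 lay above 0 and 8 below, and the median was -0.02. That list also holds Fgl1, a fibrinogen-like gene that is no FGF gene. The feedback inhibitor gene Spry2 alone passed 1.5-fold among them, with 4.41 in the WT pool and 5.11 in the KO pool. Since its WT value lay below the filter, it was at least 1.35-fold higher against that filter. Fgfr2 (-0.25) and the related feedback gene Spry1 (0.16) followed.

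The Inhba signal was 5.65 in WT and 4.96 in KO, which is a difference of -0.69 or 1.61-fold lower. This ranked as number 159 from the bottom among 11090 genes and was 2.23 times the probe set standard deviation of its signal group, in which 93.8% of genes differed by less. That group held 152 genes that were 1.5-fold lower in KO, 5.48% of it. Inhba overlaps the transcribed pseudogene B230303A05Rik in the RefSeq annotation, and the probes cannot be assigned here beyond the symbol of the probe set. The gap between Fgf21 and Inhba was 1.34 on the log2 scale.

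Of the other inhibin and activin subunit genes, Inhbb and Inhbc passed the filter, with a median difference of -0.03. Inhbb, the activin B subunit gene, was at 5.16 in WT and 5.14 in KO (-0.02), and Inha was below the filter in both pools. Of 16 genes in the list of activin and GDF15 receptors, inhibitors and SMADs, 13 passed the filter, 8 of these lay above 0, none was past 1.5-fold, and the median was 0.08. With the filter at the 75th percentile 5 of them remained, and the median turned to -0.14. The inhibitory Smad7 was highest, at 5.01 in WT and 5.59 in KO (0.58, or 1.49-fold), and the signal transducer gene Smad2 was lowest (-0.44), followed by the type I receptor gene Acvr1b (-0.29). Fst, the gene of the activin antagonist follistatin, was at 5.57 in WT and 5.83 in KO (0.26). Acvr1c, whose product is the receptor known for activin E in fat tissue, and the GDF15 receptor genes Gfral and Ret were below the filter in both pools.

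The Angptl4 signal was 9.47 in WT and 9.41 in KO, which differ by -0.06. Its relative Angptl8, whose product also takes part in the control of lipoprotein lipase, was at 8.15 in WT and 8.54 in KO (0.40, or 1.32-fold). It was 1 of 2 angiopoietin-like genes outside the 9 that passed the filter, with Angptl7 at -0.16, and their median was 0.12. The lipase system around ANGPTL4 went both ways. All 10 measured genes of 12 passed the filter, with 5 above 0 and 5 below, none past 1.5-fold by the mean of a gene's probe sets and a median of -0.02. The gene mean of the lipoprotein lipase gene Lpl (-0.44) joins probe sets that disagreed. Its first probe set was above the filter on both arrays, at 6.75 in WT and 5.93 in KO, and its difference of -0.82 was past 1.5-fold. Its second probe set was below the filter on both, at 3.27 in WT and 3.21 in KO. Apoc3, which encodes an apolipoprotein that inhibits the lipase, was at -0.40, and the endothelial lipase gene Lipg was at 0.40.

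The fetuin genes were bright and close between the pools. Ahsg, the gene of fetuin-A, which is known to inhibit the insulin receptor kinase, had signals of 12.81 in WT and 12.74 in KO, which differ by -0.07 or 1.05-fold. Fetub, the gene of fetuin-B, a metalloproteinase inhibitor, had signals of 10.34 in WT and 10.28 in KO, with a difference of -0.06. These genes stand side by side on chromosome 16 (RefSeq, GRCm38.p6), followed by the cystatin-related genes Hrg, Kng2 and Kng1. The 5 neighbours differed by between -0.13 (Kng1) and 0.02 (Kng2), and 4 of them lay below 0. Ahsg overlaps the long non-coding RNA gene Gm30505. Of 6 cystatin superfamily genes outside the 9, 5 passed the filter with a median of 0.02, and the largest differences were those of the protease inhibitor gene Cstb (0.14), Kng1 (-0.13) and Hrg (-0.13).

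The insulin receptor, on which fetuin-A is known to act, and genes of its pathway showed mostly small differences. All 12 genes passed the filter, and the list holds activators of the pathway beside inhibitors and a gene that insulin represses. Of the 12, 10 lay below 0, against 55.7% of all genes, and the median was -0.11. The 2 genes of 12 past 1.5-fold, against 3.92% of all genes, were both lower, namely Igfbp1, an IGF-binding protein gene that insulin represses, at 8.20 in WT and 7.40 in KO (-0.81), and Igf1r, the IGF1 receptor gene, at 5.64 in WT and 4.90 in KO (-0.74). Grb10, the gene of an adaptor that dampens the receptor, had a difference of -0.33, and with its KO value under the filter it was at least 1.04-fold lower against it. Insr, the insulin receptor gene itself, differed by -0.05.

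Enho, which encodes the peptide hormone adropin, had signals of 5.57 in WT and 5.55 in KO, which differ by -0.02. It overlaps Dnaic1, whose own probe set was below the filter in both pools. Of 6 nuclear receptor genes named as regulators of Enho, 4 were measured and passed the filter, with a median of 0.03. They stayed between -0.03 (Rora) and 0.06 (Nr1d2), with the LXR-alpha gene Nr1h3 at 0.05.

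Other secreted liver proteins were also mostly close between the pools. Of 27 genes 24 were measured and 22 passed the filter, with 10 above 0, 12 below and a median of -0.01. Igfbp1 was the member past 1.5-fold, and Angptl8 (0.40) and Gdf2, the gene of BMP9 (-0.34), came next. After them came Igf1, at 9.73 in WT and 9.42 in KO (-0.30), then Fst (0.26) and Lcn2 (-0.25). The fibrinogen-like hepatokine gene Fgl1 was at 9.41 in WT and 9.48 in KO, and the retinol carrier gene Rbp4 was at 11.17 in WT and 11.26 in KO.

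**Figure D4:**
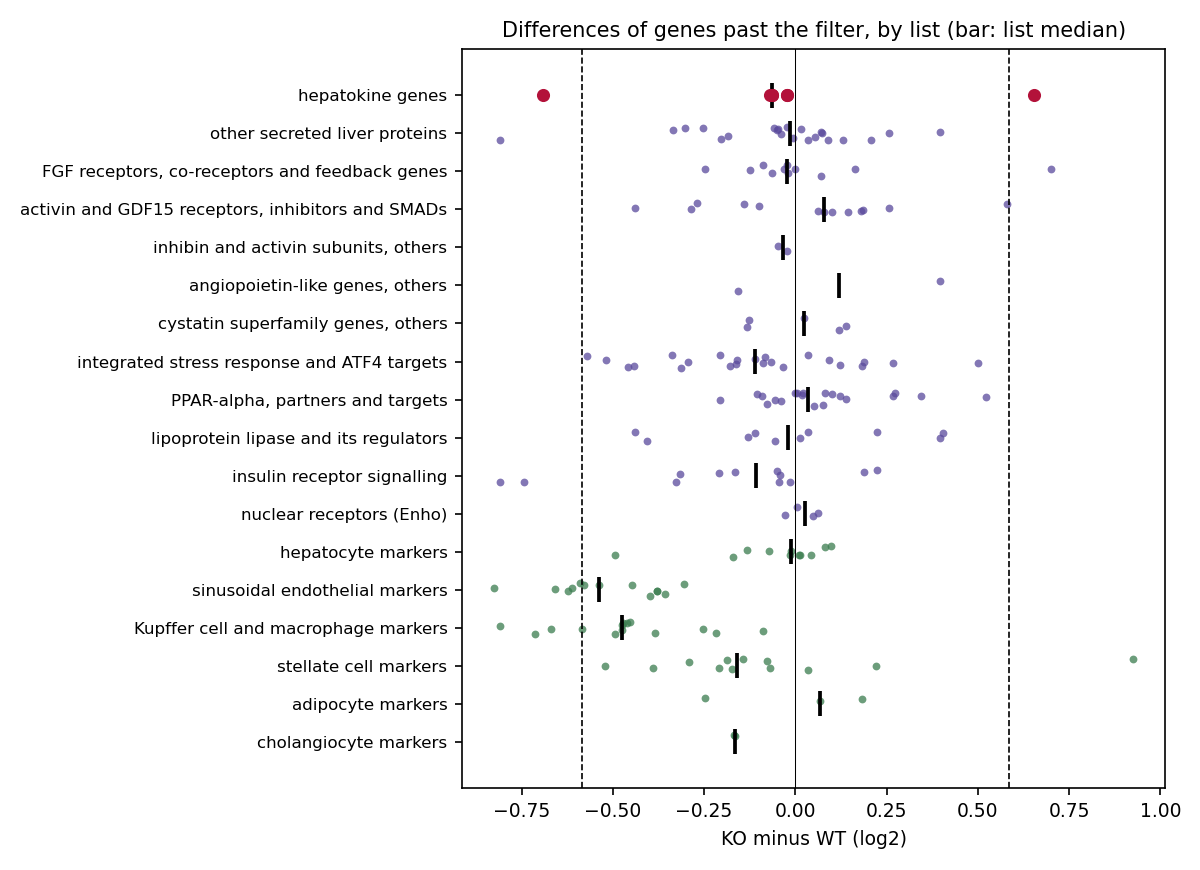
KO minus WT difference (log2, horizontal axis) of each gene past the filter, by gene list, with black bars at list medians and dashed lines at 1.5-fold; red points are the 7 hepatokine genes, violet points pathway genes and green points cell type markers. Hepatocyte markers centre near 0, and all sinusoidal endothelial and Kupffer cell markers lie below 0.

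Hepatocyte markers and Iah1 were compared with the labels. All 11 measured hepatocyte markers passed the filter with a median of -0.01, and their summed level was 15.52 in both pools. Of these markers 5 lay above 0 and 6 below. Those that differed most were all lower in KO, namely Serpina1e (-0.49), Serpina1b (-0.17) and Cps1 (-0.13). Iah1 had a signal of 8.59 in WT and missed the filter in KO, where it was at least 15.1-fold lower against it. Markers of some other cell types differed between the pools. With 1 pooled array per genotype, genotype cannot be told apart from other differences between the pools. Of all genes past the filter, 55.7% lay below 0 and 3.92% were past 1.5-fold (1.47% higher and 2.45% lower in KO). All 13 sinusoidal endothelial markers lay below 0 (median -0.54, 5 past 1.5-fold), and their summed level was 11.84 in WT and 11.35 in KO. All 14 Kupffer cell and macrophage markers lay below 0 (median -0.47, 3 past 1.5-fold), with a summed level of 11.40 in WT and 10.91 in KO, and every marker of both lists passed the filter. Led by Lyve1 (-0.83) and C1qb (-0.81), these differences were in the same direction as that of Inhba and opposite to that of Fgf21, and their part in either was not tested. Of 12 stellate cell markers 9 lay below 0 (median -0.16), and the 1 past 1.5-fold, Des, was higher in KO by its RMA values (0.93), with a WT value below the filter. Of 3 adipocyte markers past the filter 1 lay below 0 (median 0.07), and both cholangiocyte markers past it did (median -0.17), while none of 10 T, B and NK cell markers passed it. In tissue RNA, fewer cells of a type and less RNA per cell cannot be told apart.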

How the data were processed

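Liver RNA of 2 pools was measured on 1 array each. Per the submitters' processing notes, the authors used RMA in Affymetrix Expression Console 1.3.0, and the deposited values are on a log2 scale, as their range (1.18 to 13.5 over 41345 probe sets) shows. RMA corrects background, equalises the probe distributions of the arrays and summarises probes, which compresses dim differences. No source used here names the genome build of the probe sets. Precision is limited by the number of arrays.

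Probe sets with 1 symbol in the platform annotation (23521, against 1814 with several and 16010 with none) were averaged per gene, giving 22180 genes, 21994 of them matched to RefSeq GRCm38.p6 by identifier. Genes entered counts where the higher array reached 4.68. Differences are KO minus WT, counted at 1.5-fold (0.58 on the log2 scale) with no test. A fold against a value below the filter takes the filter in its place. Named were the 9 genes and up to 3 genes with the largest absolute difference from each of 11 pathway lists and 7 cell type marker lists; other genes named were chosen after their values were seen. Summed levels are log2 of summed linear signals. The 9 genes and the lists were chosen with earlier results of these data known. Alternatives covered the probe set rule, scaling, filter and fold threshold. Python 3.11.15, pandas 2.3.3 and R 4.3.3 (loess, span 0.4) were used, and the steps were tested on simulated data.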

Additional observations from a re-analysis of the deposited data

How the results depend on the processing

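Across 8 alternative settings, 117 of 132 recomputed values kept within 1.5 times the reported count or within the spread between probe sets. For a single gene that spread was 0.27, wider than the differences of the 5 genes within 1.5-fold, so keeping within it says little about them. No value past 1.5-fold changed sign, which could have happened only for Fgf21 and Inhba. The brightest probe set rule could not change any of the 7 genes, since each has 1 probe set. Fgf21 stayed between 0.65 and 0.68 and Inhba between -0.69 and -0.66 under the median subtraction, the repeated quantile normalization and the loess fit. Inhbe and Enho, both at -0.02, crossed 0 under some of these, reaching 0.00 (0.0013) and 0.02. With the filter at the 75th percentile or a 2-fold threshold, 0 genes were past the threshold in either direction, out of 4 that passed that filter (Fgf21, Inhba and Enho are too dim for it) and out of all 7 measured at 2-fold. All genes past the threshold numbered 18 higher and 61 lower with that filter, 572 and 576 with no filter, 538 and 851 at 1.3-fold, and 15 and 34 at 2-fold. The angiopoietin-like median was 0.40 with either other filter, where 3 genes and 1 gene entered, and the median of the activin and GDF15 list was -0.14 with the stricter filter, over 5 genes. No paired analysis was possible because each genotype has 1 array, and for the same reason no replicate could be left out.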
